A study of Mus musculus with 2 samples.

Results

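Shh, Ptch1, Smo, Gli1, Gli2 and Gli3, the ligand, receptor, transducer and transcription factors of hedgehog signalling, were located on chromatin contact maps of mouse hair matrix keratinocytes, the proliferating epithelium of the hair bulb, at postnatal day 4.5. These 6 genes, of 21900 protein-coding genes in the annotation, were chosen by name, as core genes of the pathway, with earlier results of these data known, the long Shh contact among them. Any pixel with an anchor bin within 20 kb of either annotated end of a gene was assigned to it, which gave 5 of 5811 WT pixels and 2 of 4872 DKO pixels. Hi-C counts ligations between DNA ends that were near each other in the nucleus, and was carried out with Arima enzymes on 1 library per genotype. WT stands for wild-type mice, and DKO for mice labelled Tet2/Tet3 DKO, Krt14-Cre, which lack both genes where the Cre acted. TET2 and TET3 oxidise methylated cytosine, and the Krt14 promoter is active in basal epithelial cells, so cells of other lineages in a preparation would keep both genes. The labels call both samples primary cells and name no Cre for WT, and the sources used here do not give the number of mice or the way the cells were isolated. There is no replicate error and therefore no test: a difference between the lists is one between 2 libraries, and genotype, animal and library cannot be told apart.

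In the hedgehog pathway a secreted ligand, in the follicle sonic hedgehog (SHH) from matrix epithelium, binds the receptor Patched 1 (PTCH1). Unbound PTCH1 holds the membrane protein Smoothened (SMO) inactive, and ligand releases SMO, which acts through the primary cilium on the transcription factors GLI1, GLI2 and GLI3. GLI2 is mainly an activator, GLI3 mainly a repressor, and GLI1 an activator that is itself a target gene. The pathway drives growth of the follicle into the dermis and the division of its epithelial cells.

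The deposited values are lists of enriched pixels. A pixel is a pair of 5 kb bins on 1 chromosome whose contact count exceeded the counts of its surroundings, at a false discovery rate (FDR) under 0.1 against each of 4 neighbourhoods. The WT list held 5811 pixels and the DKO list 4872, with a median of 18.0 observed contacts per pixel in both. Over the 1940 pixels listed in both, the median quotient of DKO to WT expected counts was 0.973. Enrichment below is the observed count divided by the count expected from the donut around the pixel, with an exact 95% Poisson interval that covers counting error alone. A gene with no pixel is one at which no contact was called, which does not show that there is none. Contacts measure neither transcripts nor cell identity. By the same rule 4 of 7 hair matrix markers had a pixel in WT and 3 of 7 in DKO, as did 3 and 3 of 6 dermal markers, 2 and 1 of 5 melanocyte markers and 4 and 1 of 5 immune and endothelial markers, beside 28.1% of all protein-coding genes in WT and 26.1% in DKO.

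Few contacts were called at the 6 genes, and most rested on few counts. In WT, 3 genes (Shh, Ptch1 and Gli3) had together 5 pixels (interval 1.62 to 11.7), and in DKO 2 genes (Shh and Smo) had 2 pixels (0.242 to 7.22). The share of all protein-coding genes with a pixel was 28.1% in WT and 26.1% in DKO, and 36.0% had one in either list, as 4 of the 6 did. Nothing particular to the 6 genes is read from these counts. Shh was the only one of the 6 with a pixel in both lists, against 18.2% of protein-coding genes, and the only one with a pixel matched within 2 bins, against 16.3% in WT and 16.1% in DKO. Ptch1 and Gli3 had a pixel in WT alone (9.92% of protein-coding genes) and Smo in DKO alone (7.91%), while Gli1 and Gli2 had none in either list. Within 50 kb 4 of the 6 had a pixel in each list, against 40.0% of protein-coding genes in WT and 37.3% in DKO. The 5 WT pixels held 11 to 14 contacts each on expected counts of 1.36 to 2.30. None of them had an FDR under 0.01 in all 4 neighbourhoods, which 43.0% of WT pixels had. In DKO 1 of the 2 had, against 41.3% of its list.

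Shh, the ligand, had contacts of 810 to 885 kb, a length known when the gene was chosen and exceeded among the 6 genes by the pixels around Gli3 (1110 and 1115 kb). Shh lies on chromosome 5 (28456840 to 28467101), and every pixel at it in either list ran to bins inside Lmbr1 (29229802 to 29378421), across the gene Rnf32. An intron of Lmbr1 is known to hold the limb enhancer of Shh, the ZRS. The gene table used here does not place that enhancer, so the bins were not measured against it.

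The WT list had 3 pixels there. The longest joined chr5:28450001-28455000, a bin 1840 bp outside the lower end of Shh, with chr5:29335001-29340000 over 885 kb, with 11 contacts at 8.11 times expected (4.05 to 14.5). The next joined a bin inside Shh (chr5:28460001-28465000) with chr5:29285001-29290000 over 825 kb, with 12 contacts at 7.69 times expected (3.97 to 13.4). The last joined the bin that holds the upper end of Shh and part of the non-coding gene 9530036O11Rik (chr5:28465001-28470000) with chr5:29275001-29280000. It spanned 810 kb, with 12 contacts at 6.70 times expected (3.46 to 11.7). The largest FDR was 0.0989 at the 885 kb pixel and 0.0970 at the 825 kb pixel, both close to the limit of the list. At the 810 kb pixel it was 0.0373. Each was the FDR against the horizontal neighbourhood, whose expected counts gave enrichments of 5.25, 4.54 and 4.99 in that order. The DKO list had 1 pixel, from the same outer bin as the longest WT pixel (chr5:28450001-28455000) to chr5:29290001-29295000. That pixel spanned 840 kb, with 14 contacts at 4.90 times expected (2.68 to 8.22) and a largest FDR of 0.0517. No DKO pixel touched a bin of the Shh gene body.

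On the Lmbr1 side, the bins of the shorter pair of WT pixels began 45.2 and 55.2 kb above the lower end of Lmbr1, and the DKO bin 60.2 kb above it. The bin of the 885 kb WT pixel began 105 kb above that end. No protein-coding gene end lay within 20 kb of any of these 4 partner bins, and all of them were inside Lmbr1. In the 922 kb from the lower end of Shh to the upper end of Lmbr1, these 3 WT pixels and 1 DKO pixel were the full number of pixels with an anchor.

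**Figure D1:**
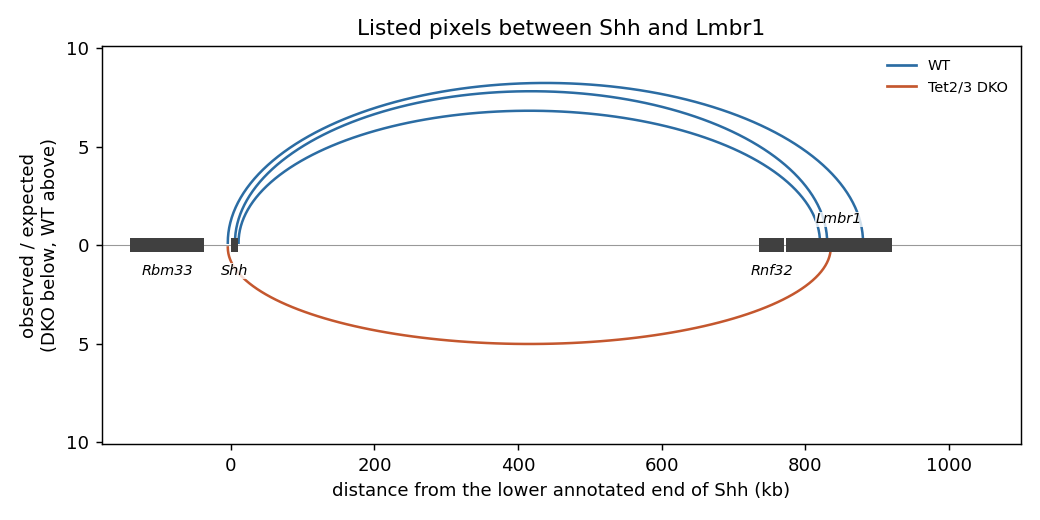
Pixels between Shh and Lmbr1, as arcs from anchor to anchor. The x axis gives the distance from the lower annotated end of Shh in kb, and the height of each arc is observed over expected contacts, WT upward and DKO downward. Dark boxes are protein-coding genes. The 3 WT arcs reach 6.70 to 8.11 and the DKO arc 4.90, and all end in Lmbr1.

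With neighbouring pixels joined at a distance of 20 kb, WT had 2 Shh contacts, 1 of 825 and 810 kb and 1 of 885 kb, and DKO had 1. Joined at 50 kb, the WT pixels made 1 contact, as in DKO. The 825 kb WT pixel and the DKO pixel lay 10 kb apart at the Shh anchor and 5 kb apart at the Lmbr1 anchor, within the 2 bins used for matching, so this contact counts as listed in both. The match rests on that allowance: within 1 bin or at the exact pixel no Shh pixel was shared. Set side by side, the DKO/WT quotient of enrichment was 0.637 with an interval of 0.273 to 1.51. Raw counts, scaled by the median quotient of DKO to WT expected counts over pixels in both lists (0.973), gave 1.20 (0.515 to 2.84). This is the other direction, because the expected count at the DKO pixel was 1.83 times that at the WT pixel. Both intervals hold 1, and the bins differ, so the order of the libraries at this contact is not given by these counts.

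Long spans are rare in these lists. Only 43 WT pixels (0.740%) spanned at least 825 kb, and 25 of these had a DKO match. In DKO 32 pixels spanned at least 840 kb, 18 of them with a WT match. Of 3559 other protein-coding genes with a matched WT pixel, 18 (0.506%) had a longest matched span at or above that of Shh. The span of Shh was known when the gene was chosen, so the shares of 0.740% and 0.506% describe the lists and are no test of Shh. The second share also rests on the matching allowance, without which Shh had no matched pixel. The median enrichment over pixels of 500 kb or more was 7.63 in WT, with 3 Shh pixels on both sides of it, and 7.44 in DKO, above the 4.90 of its Shh pixel. The median count of such pixels was 14 in both lists. Of those long pixels 52.9% in WT and 62.7% in DKO had a match in the other list, against 67.6% and 70.5% of all pixels.

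The genes whose longest matched contact came nearest to that of Shh in span, measured in WT, were Eif1 and Krt23, Adamts1, Actn1 and Gm52006. Eif1, a translation initiation factor, and Krt23, a type I keratin gene, shared a contact of 835 kb in WT and 825 kb in DKO on chromosome 11, with 15 and 16 contacts at 7.07 and 8.04 times expected. Adamts1, an extracellular protease gene, had one of 840 and 835 kb on chromosome 16, with 13 and 20 contacts at 9.68 and 12.1 times expected. The contact of Actn1, an actin-binding protein gene, spanned 790 and 780 kb, with 12 and 16 contacts at 5.94 and 5.82 times expected. Gm52006 shared that DKO pixel with Actn1, and its WT pixel, of 780 kb with 16 contacts at 4.83 times expected, lay close to that of Actn1.

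**Figure D2:**
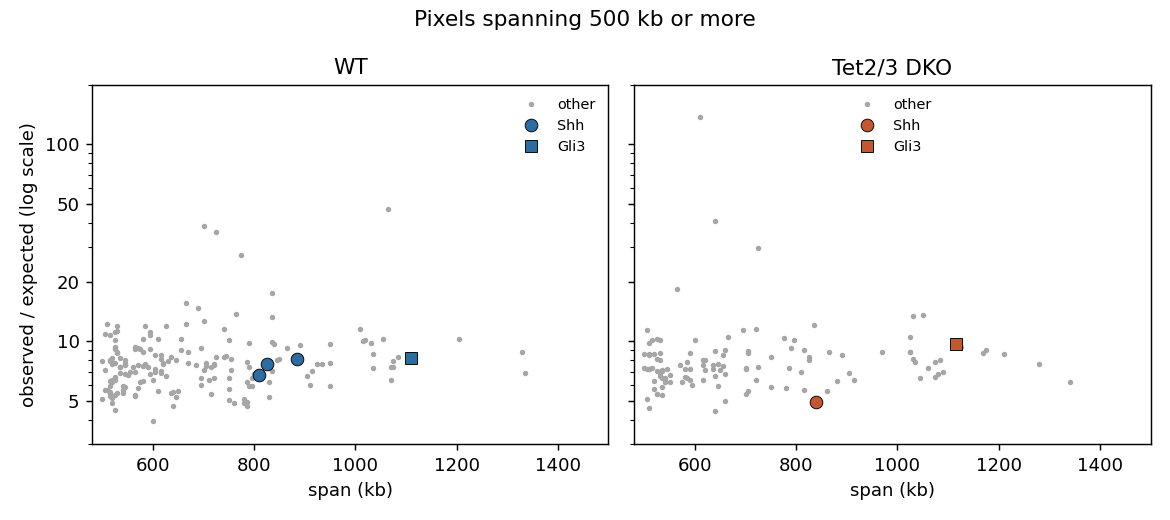
Pixels spanning 500 kb or more in the WT list (left, 189 pixels) and the DKO list (right, 126 pixels), with span in kb on the x axis and observed over expected contacts on a log y axis. Grey points are pixels of other loci, circles those at Shh and squares those around Gli3. The Shh pixels sit between 810 and 885 kb at 4.90 to 8.11, the WT points amid the others and the DKO point near the bottom of its panel, and 3 pixels per list lie outside the axes.

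Ptch1, the receptor (chromosome 13, 63508328 to 63573460), had 1 WT pixel and no DKO pixel. The WT pixel joined chr13:63560001-63565000 in Ptch1 with chr13:63430001-63435000 inside the neighbouring gene Fancc, which encodes a DNA repair protein, over 130 kb. It held 12 contacts at 5.84 times expected (3.02 to 10.2), with a largest FDR of 0.0970, close to the limit of the list. The nearest DKO pixel had an anchor 173328 bp from an end of Ptch1. The anchor in Ptch1 lay 735 bp from an annotated start site of the gene on its minus strand. The 250 bases before that start site (RefSeq, GRCm38.p6, chr13:63565736-63565985, minus strand) are shown because they lie just past the anchor, with capitals for matches to CCCTC or its reverse complement GAGGG, a short stretch found in binding sites of the loop anchor protein CTCF.
Ptch1: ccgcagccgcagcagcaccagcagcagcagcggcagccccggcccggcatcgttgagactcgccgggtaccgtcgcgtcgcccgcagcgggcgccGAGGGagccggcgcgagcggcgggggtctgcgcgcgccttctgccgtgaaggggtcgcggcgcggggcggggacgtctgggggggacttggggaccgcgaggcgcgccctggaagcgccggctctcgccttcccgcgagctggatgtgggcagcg

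Smo, the signal transducer (chromosome 6, 29735497 to 29761366), had 1 DKO pixel and no WT pixel. It joined chr6:29755001-29760000, near the upper end of Smo, with chr6:29710001-29715000 in Tspan33, a tetraspanin gene, over 45 kb. Its 22 contacts stood at 3.51 times expected (2.20 to 5.31), the lowest enrichment and the highest count among the pixels at the 6 genes. The start site of Smo, at its lower end, was 19.5 kb from the anchor, and an end of Ahcyl2 also lay within 20 kb of it, so the anchor cannot be assigned to Smo over Ahcyl2. The nearest WT anchor was 455497 bp from Smo.

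**Figure D3:**
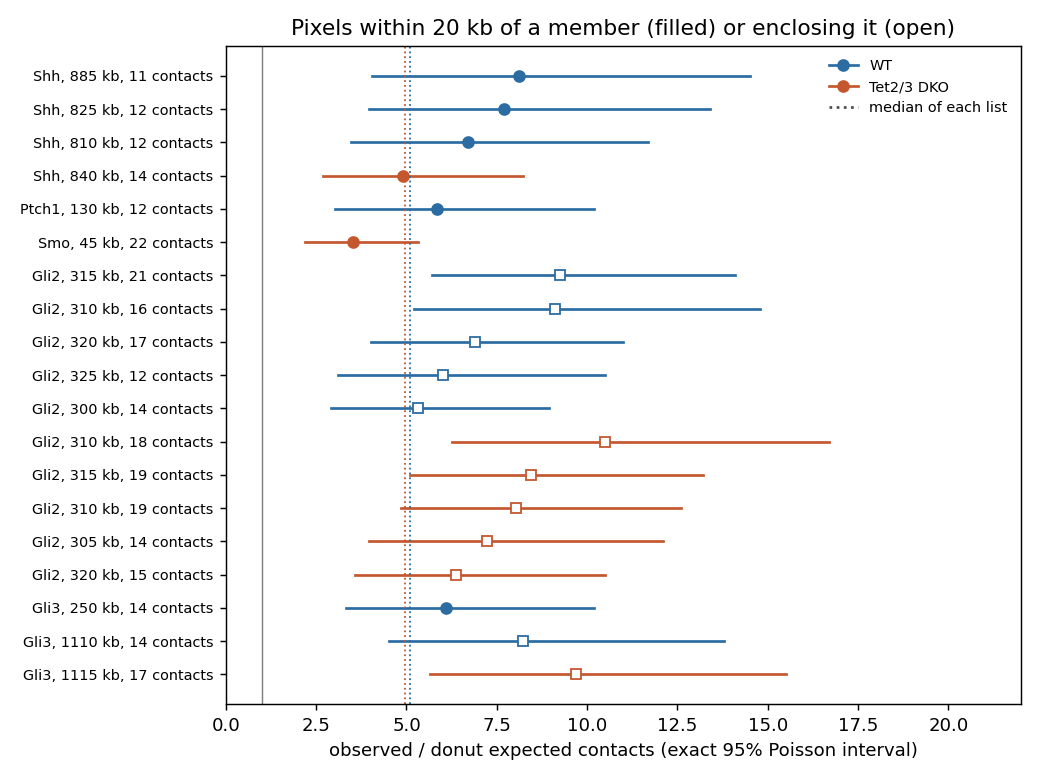
Observed over donut expected contacts (x axis) of each pixel at Shh, Ptch1, Smo, Gli2 and Gli3, with exact 95% Poisson intervals. Filled circles are pixels within 20 kb of a gene end and open squares pixels whose anchors enclose the gene, in blue for WT and orange for DKO, and dotted lines are the list medians, 5.11 in WT and 4.95 in DKO. Apart from the Smo pixel, whose interval spans both medians, and the DKO Shh pixel at 4.90, the points lie above the medians, and many intervals cross them.

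Gli3, the repressor of the family (chromosome 13, 15463723 to 15730026), had 1 WT pixel within its own body. The pixel joined chr13:15460001-15465000, which holds the Gli3 start site, with chr13:15710001-15715000 toward the far end of the gene, over 250 kb. It had 14 contacts at 6.09 times expected (3.33 to 10.2) and a largest FDR of 0.0136. The start site bin also overlaps the non-coding gene Gm6556, and no other protein-coding gene had an end within 20 kb of either anchor. The DKO list had no pixel there. The 250 bases before the start site (RefSeq, GRCm38.p6, chr13:15463473-15463722, plus strand) are shown because they lie inside the anchor bin, capitals as for Ptch1.
Gli3: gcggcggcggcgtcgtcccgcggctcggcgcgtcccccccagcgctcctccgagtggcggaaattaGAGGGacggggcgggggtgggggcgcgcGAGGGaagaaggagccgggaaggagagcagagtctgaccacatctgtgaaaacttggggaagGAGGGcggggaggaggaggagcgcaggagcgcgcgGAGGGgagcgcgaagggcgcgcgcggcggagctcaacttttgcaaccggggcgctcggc

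A longer pixel enclosed Gli3 in both lists. In WT it joined chr13:14650001-14655000 with chr13:15760001-15765000 over 1110 kb, with 14 contacts at 8.24 times expected (4.51 to 13.8). In DKO the lower anchor lay 1 bin away, at chr13:14645001-14650000, and the pixel spanned 1115 kb with 17 contacts at 9.69 times expected (5.65 to 15.5). The DKO/WT quotient was 1.18 (0.546 to 2.58). Gli3 was the only protein-coding gene inside these anchors. The upper anchor was 29975 bp past the end of Gli3, just outside the 20 kb rule, and the lower anchor lay near AW209491.

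Gli2, the main activator (chromosome 1, 118834061 to 119054405), had its nearest anchor 20596 bp from an end, just outside the 20 kb rule, and was enclosed by pixels that reached the highest enrichment, in each list, of any listed at or around the 6 genes. In each list there were 5 such pixels, with Gli2 the only protein-coding gene inside. In WT they ran from bins 54.1 to 64.1 kb below the gene to bins 20.6 to 35.6 kb above it. The DKO bins lay 59.1 to 64.1 kb below it and 20.6 to 30.6 kb above it. The pixel of chr1:118765001-118770000 and chr1:119080001-119085000 had 21 contacts in WT at 9.24 times expected (5.72 to 14.1) and 19 in DKO at 8.45 (5.09 to 13.2). The pixel of chr1:118770001-118775000 and the same upper bin had 16 in WT at 9.10 (5.20 to 14.8) and 18 in DKO at 10.5 (6.25 to 16.7). Both were high in both libraries, and both had an FDR under 0.01 in all neighbourhoods in each list.

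The third pixel around Gli2 listed in both libraries, with its upper anchor at chr1:119085001-119090000, had 17 contacts in WT and 15 in DKO, at 6.89 and 6.38 times expected. Over the 3 pixels the DKO/WT ratio of enrichment was 0.915 (0.465 to 1.79), 1.16 (0.558 to 2.43) and 0.926 (0.431 to 1.97). The quartiles of this ratio over all 1940 pixels listed in both were 0.841 and 1.15, around a median of 0.983. All 3 intervals hold 1, and their bounds give the size of change that these counts leave undetected. In WT the bin chr1:119085001-119090000 also joined chr1:119460001-119465000 near Ralb over 375 kb, with 14 contacts at 6.74 times expected (3.68 to 11.3), a pixel that the DKO list did not hold.

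Of the 6 genes 3 (Shh, by its pixels from the outer bin, Gli2 and Gli3) lay inside the anchors of a pixel in both lists, against 8.29% of protein-coding genes (14.4% in WT and 12.7% in DKO). Inside a pixel matched within 2 bins lay 2 of 6 in WT, Gli2 and Gli3, against 7.84%, and 3 of 6 in DKO, Shh, Gli2 and Gli3, against 7.86%. The WT match of the DKO Shh pixel is anchored inside Shh and does not enclose it. The 885 kb WT pixel that encloses Shh had no match. Counting by enclosing pixels was added after the values were seen. Genes are not alike in length or in the density of their surroundings, which this background does not take into account.

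**Figure D4:**
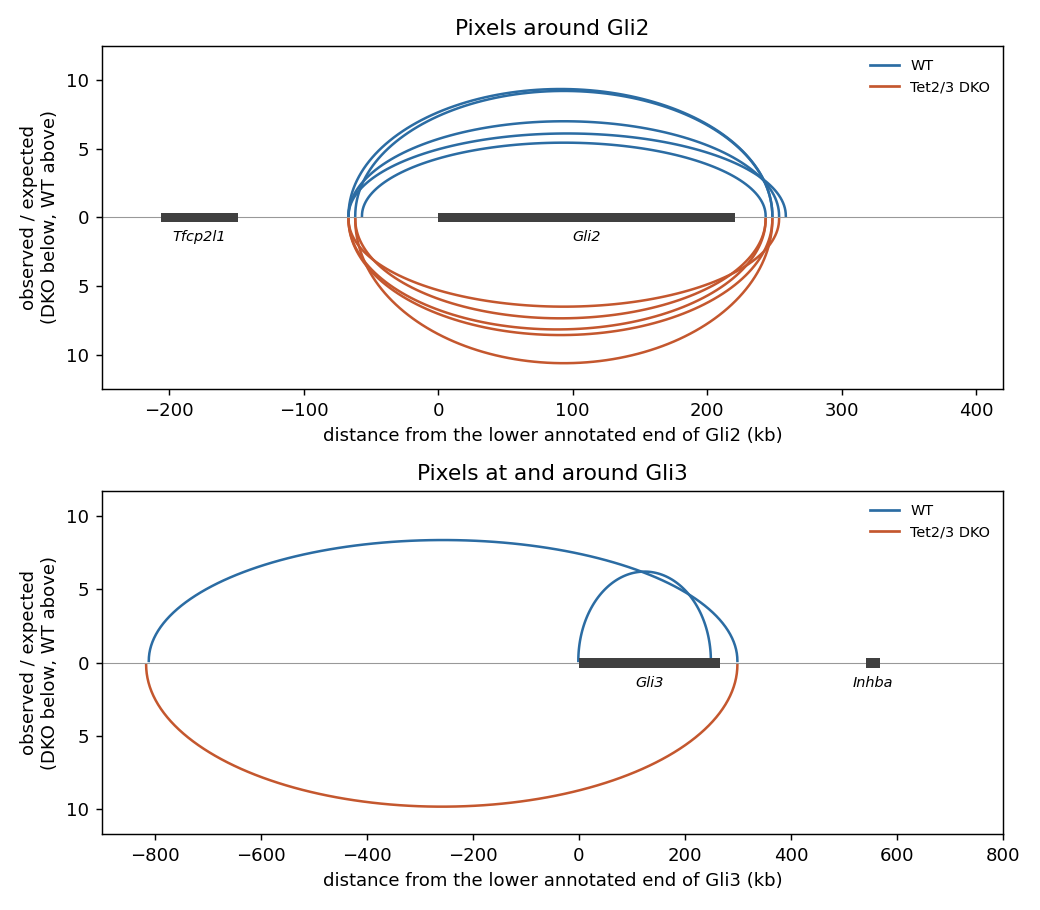
Pixels around Gli2 (top) and at and around Gli3 (bottom), as arcs over the distance from the lower end of each gene in kb, with arc height giving observed over expected contacts, WT upward and DKO downward. Dark boxes are protein-coding genes. Both lists hold 5 arcs around Gli2 and 1 long arc around Gli3, and the short arc within Gli3 is listed in WT alone.

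Gli1, the target and activator (chromosome 10, 127329882 to 127341579), had no pixel within 20 kb or 50 kb and was enclosed by none. The nearest anchor was 99882 bp away in WT and 109882 bp away in DKO.

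Of 30 further pathway genes, 12 had a pixel in WT and 11 in DKO, 10 of them in both lists. The shares of all protein-coding genes were 28.1% in WT, 26.1% in DKO and 18.2% in both lists, and the count in both lists lay further above its share than the single-list counts. This was not tested, and nothing particular to the list is read from it. Among ligands, their release and their carriers, Ihh, Hhat, Disp1, Disp2, Scube1 and Scube2 had no pixel in either list. Dhh, the ligand of testis and nerve sheath, had 18 contacts in each list, at different pixels. The WT pixel, of 100 kb, stood at 4.16 times expected (2.46 to 6.57) and the DKO pixel, of 105 kb, at 4.13 (2.45 to 6.53). The Dhh anchor bin is also near Kmt2d, Rhebl1 and Lmbr1l. Scube3, a secreted factor gene of the family that helps release SHH, had 4 pixels in each list, running to Tcp11. The highest WT count was 26 at 3.04 times expected (1.99 to 4.46), at a pixel with 25 in DKO at 3.16 (2.05 to 4.67). The highest DKO count was 28 at 5.29 (3.52 to 7.65), at a pixel with 24 in WT at 4.07 (2.61 to 6.06). The DKO/WT ratios at these 2 pixels were 1.04 (0.576 to 1.87) and 1.30 (0.727 to 2.34).

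Among the co-receptors, Cdon and Boc, which bind SHH beside PTCH1, had pixels at the same bins in both lists, and Gas1 had none. At Cdon a pixel over 240 kb, toward Fam118b and Rpusd4, had 24 contacts in WT at 5.54 times expected (3.55 to 8.25) and 22 in DKO at 6.24 (3.91 to 9.45). At Boc a pixel over 240 kb, toward Nepro and Gtpbp8, had 25 contacts in WT at 5.12 (3.32 to 7.56) and 24 in DKO at 5.39 (3.46 to 8.03). The highest count at Boc was that of a DKO pixel 1 bin away, with 26 contacts at 6.60 times expected (4.31 to 9.68). The Cdon anchor lay 12349 bp outside the gene, nearer to Gm1113, and the Boc anchors lay where Boc adjoins Cfap44. Lrp2, an endocytic receptor, had 1 WT pixel (12 contacts, 5.57, 2.88 to 9.73), and Hhip, the decoy receptor, had none.

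Sufu, the inhibitor that binds GLI proteins, had 2 WT pixels and no DKO pixel, with the lowest FDR among the 3 pathway genes that had pixels in 1 list alone. They ran from the bin that holds the Sufu start site (chr19:46395001-46400000) into the gene body over 45 and 50 kb, with 26 contacts at 4.19 times expected (2.74 to 6.14) and 24 at 4.21 (2.70 to 6.27). Both had an FDR under 0.01 in all neighbourhoods. The DKO pixel nearest to them by the summed distance of both anchors lay 260000 bp away at its farther anchor. The bin also holds part of Actr1a. The 250 bases before the Sufu start site (RefSeq, GRCm38.p6, chr19:46396646-46396895, plus strand) lie inside the anchor and hold no CCCTC or GAGGG, so the sequence has no capitals.
Sufu: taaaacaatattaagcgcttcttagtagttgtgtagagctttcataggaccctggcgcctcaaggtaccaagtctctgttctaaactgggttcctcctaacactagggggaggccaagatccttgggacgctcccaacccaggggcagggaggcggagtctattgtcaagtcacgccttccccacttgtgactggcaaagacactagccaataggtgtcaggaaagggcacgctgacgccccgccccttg

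Kinases, cilium genes and regulators of SMO and GLI had pixels in both lists, in 1 list or in none. Csnk1a1, a kinase that phosphorylates GLI proteins, had 6 WT and 2 DKO pixels, and the 2 DKO pixels were also in the WT list (ratios 1.17 and 1.08). Adcy6, an adenylate cyclase, had 2 WT and 6 DKO pixels, and the pixel in both held 35 contacts in WT at 4.63 times expected (3.22 to 6.43) and 32 in DKO at 4.30 (2.94 to 6.07). Its anchors lay 4978 and 4714 bp outside Adcy6, the first inside 4930415O20Rik and the second also near Cacnb3. Arrb2, a β-arrestin that binds SMO, had 2 WT and 4 DKO pixels, and Ift88, a carrier of the cilium, 1 in each list with 23 contacts in both. Many of these pixels are neighbours. Joined at 20 kb, those of Adcy6 and of Arrb2 made 1 contact per gene in each list. Those of Csnk1a1 made 3 in WT and 1 in DKO. The WT Arrb2 pixels and 1 DKO pixel were anchored in Pelp1, 17485 bp from Arrb2. The other DKO pixels were anchored in Arrb2 itself and had no match. The Ift88 anchor lay 14064 bp outside the gene, nearer to Cryl1. Tulp3, a ciliary trafficking gene, had 1 WT and 2 DKO pixels, none matched. Spop, an adaptor for degradation of GLI proteins, had 1 DKO pixel (17 contacts, 3.04, 1.77 to 4.87). A WT pixel had an anchor 21591 bp from Spop, just outside the 20 kb rule. Kif7, Kif3a, Evc, Evc2, Gpr161, Ulk3, Stk36, Prkaca and Gsk3b had none in either list.

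Of 10 genes known as targets of the pathway, 5 had a pixel in WT and 5 in DKO, 4 of them in both, beside 28.1%, 26.1% and 18.2% of protein-coding genes. With 10 genes, nothing particular to the list is read from this. Ccnd1, the cyclin D1 gene that promotes entry into S phase, had 6 WT and 8 DKO pixels, most of them between the gene and Tpcn2. An end of LTO1 also lay within 20 kb of the anchor near Ccnd1 in every one. The DKO pixel that did not run to Tpcn2 had its anchor nearest Fgf15, 19931 bp from Ccnd1. The pixel with the highest count spanned 305 kb from a bin inside Ccnd1. It had 41 contacts in WT at 6.56 times expected (4.71 to 8.90) and 33 in DKO at 6.0 (4.13 to 8.42). Ccnd2, the cyclin D2 gene, had 2 and 4 pixels. The highest counts were 25 in WT at 4.57 (2.96 to 6.74) and 22 in DKO at 5.30 (3.32 to 8.03), at different pixels. Joined at 20 kb, the Ccnd1 pixels made 1 contact in WT and 2 in DKO, and the Ccnd2 pixels 2 in each list. Both cyclin genes were anchored in both libraries. Foxf1, a forkhead factor gene, had a WT pixel at 11.2 times expected (14 contacts, 6.10 to 18.7), and Bcl2, an inhibitor of apoptosis, a DKO pixel at 3.58 (15 contacts, 2.00 to 5.90). A DKO pixel had an anchor 21847 bp from Foxf1, just outside the 20 kb rule. Foxe1, Sox9 and Prdm1 had none.

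Mycn, a proto-oncogene of proliferating progenitors, had contacts toward both sides in both libraries from its start site bin, chr12:12940001-12945000. Over 520 kb, to a bin in the non-coding gene Gm34489, it had 16 contacts in WT at 6.35 times expected (3.63 to 10.3) and 14 in DKO at 5.74 (3.14 to 9.63). Over 270 kb, toward Ddx1, it had 15 contacts in WT at 6.47 (3.62 to 10.7) and 14 in DKO at 5.58 (3.05 to 9.36). The WT list had 2 more Mycn pixels, of 310 and 275 kb. The 250 bases before the Mycn start site (RefSeq, GRCm38.p6, chr12:12941837-12942086, minus strand) are shown because they lie in the anchor of both contacts, capitals as before.
Mycn: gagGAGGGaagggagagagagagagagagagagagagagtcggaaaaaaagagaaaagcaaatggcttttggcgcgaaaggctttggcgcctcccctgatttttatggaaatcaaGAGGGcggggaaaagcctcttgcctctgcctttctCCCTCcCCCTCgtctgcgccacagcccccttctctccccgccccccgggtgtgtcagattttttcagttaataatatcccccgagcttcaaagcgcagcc

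**Figure D5:**
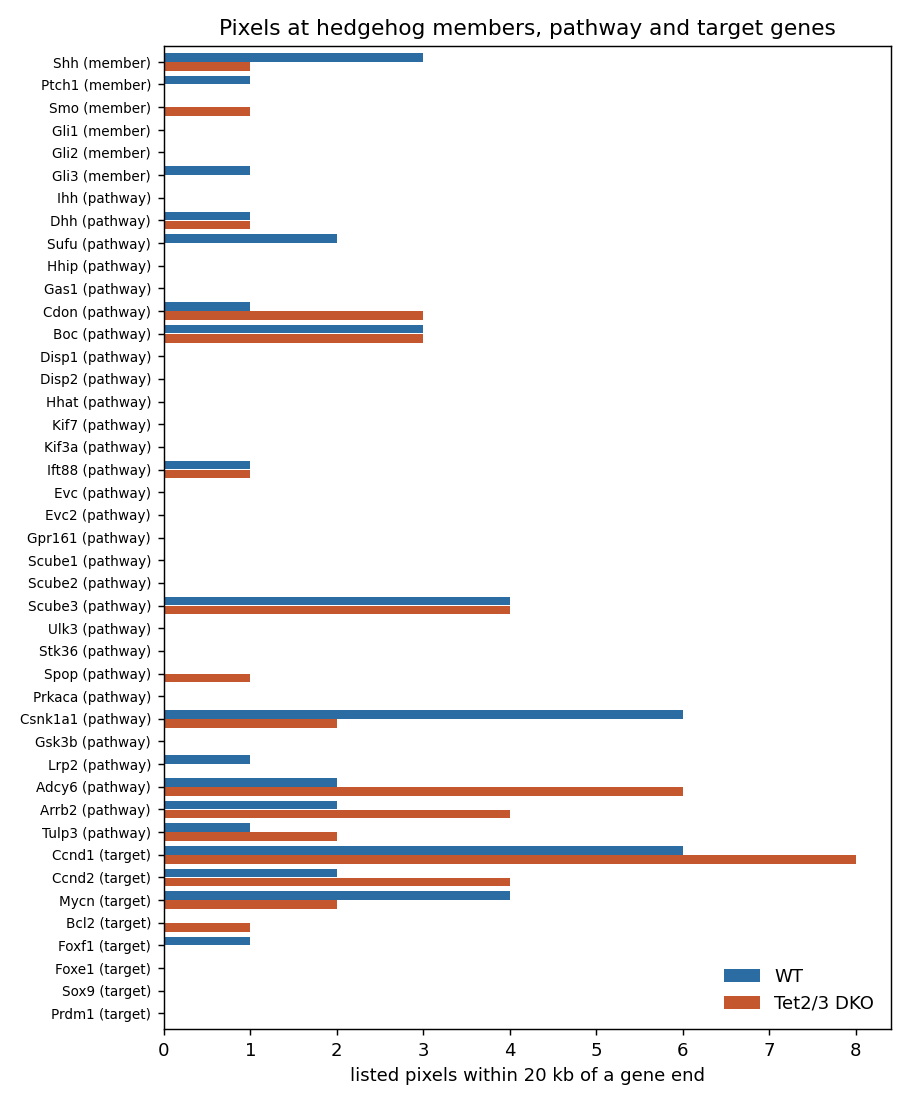
Number of listed pixels within 20 kb of a gene end (x axis) for the 6 genes and the pathway and target genes reported here, with a bar for WT and one for DKO. A missing bar is a count of 0. The highest count is 8, in DKO at Ccnd1, while Shh has 3 in WT and 1 in DKO. Neighbouring pixels are counted separately, so a bar is not a number of contacts. Joined at 20 kb, the Ccnd1 pixels made 1 contact in WT and 2 in DKO.

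Across the pathway and target lists, which hold 38 genes together, 18 pixels at 9 genes were listed in both libraries. Their DKO/WT ratios of enrichment ran from 0.844 to 1.61 with a median of 0.984, beside a median of 0.983 for all pixels in both lists. Each of the 18 intervals held 1, which does not show that the libraries are alike, since single intervals reach as low as 0.385 and as high as 2.97. Several of these pixels share a gene or a bin and are not separate observations. No pixel within 20 kb of the 6 genes was listed at the same bins in both libraries, so no such ratio exists for them.

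The promoter sequences printed above were searched on both strands for fixed letters. None of the 4 holds the GLI site TGGGTGGTC, which 0.225% of 32851 annotated promoter windows of the same length hold, nor a longer CTCF core motif (0.0122%) or the TATAAA box (12.4%). CCCTC, or its reverse complement, occurs in 60.5% of windows, with 1 match at Ptch1, 4 at Gli3, 4 at Mycn and 0 at Sufu. The E-box CANNTG occurs in 66.2% of windows, with 1 match each at Gli3, Sufu and Mycn. These are matches of letters in windows of 250 bases and say nothing of binding. The GC content was 78.4% at Ptch1, 72.8% at Gli3, 54.8% at Mycn and 54.0% at Sufu, against a median of 52.4% over all windows.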

How the data were processed

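Hi-C pixel lists from 1 WT and 1 DKO library were analysed. Pixels were called with juicer_tools 1.22.01, per the file headers; the submitters' processing notes name Juicer and GRCm38 (mm10). Aligner, read filters and depth: not given in the sources used here. Per pixel, the authors deposited a raw contact count and, for each of 4 neighbourhoods, a signal (expected contacts), a q-value (FDR) and a score that numbers the expected count's class, which was not used. A list holds only called pixels, so its sum is not a depth.

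From these values, enrichment, distances to gene ends, matches within 2 bins and joined contacts (single linkage, 20 kb) were computed in Python 3.11.15 with numpy 2.4.6, pandas 2.3.3 and scipy 1.17.1, tested on simulated data. Gene ends, start sites and promoters came from RefSeq tables of GRCm38.p6, and 4 of the 6 genes had a promoter entry. Coordinates are 1-based. Intervals are exact 95% ones, Poisson for counts and conditional binomial for ratios, with expected counts taken as fixed. Genes and lists were chosen with earlier results of these data known. Genes named are the 6, the protein-coding genes near partner anchors, list genes with a pixel, and the 5 genes nearest Shh in matched span. Enclosing pixels were examined after the values were seen, as were Ralb and genes named for having no pixel. Counts over the lists include 1 gene that is not reported here.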

Additional observations from a re-analysis of the deposited data

How the results depend on the processing

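No paired analysis was possible because there is 1 library per genotype, and none could be left out. The alternatives gave 284 values. Of these, 225 stayed within 1.5 times of the reported count or within its interval, 174 of them for single genes or pixels. The other 59 moved, 25 of them for single genes or pixels. A stricter setting cannot change a count of 0, so such values among the 225 were fixed in advance. Median enrichments at the 6 genes were judged against the range of their pixels, 5.84 to 8.11 in WT and 3.51 to 4.90 in DKO, which is not an interval. Pixels at the 6 genes (5 in WT, 2 in DKO) became 2 and 0 with an end required to lie in the bin, 12 and 8 within 50 kb, 0 and 1 at an FDR under 0.01, and 0 and 1 with at least 20 contacts. The gain at 50 kb came from pixels near Gli2 and Gli3. The number of these genes with a pixel (3 and 2) became 0 and 1 at the stricter FDR and at 20 contacts, and in DKO 0 with ends inside the bin and 4 within 50 kb. Pathway genes with a pixel (12 and 11) became 3 and 3 with ends inside the bin and 6 and 6 at the stricter FDR. Target genes (5 and 5) became 3 in WT at 20 contacts, and in DKO 3 with ends inside the bin, within 5 kb or within 10 kb, and 2 at the stricter FDR and at 20 contacts. Shared contacts of the 6 genes (1 in each list), and WT Shh pixels listed in both (1), became 0 at the exact pixel and within 1 bin, and the WT Shh pixels became 2 within 5 bins. The median enrichment of pixels at the 6 genes, 6.70 in WT, became 4.99 with horizontal and 4.84 with the largest expected counts, and 4.20 in DKO became 3.45 with the largest. Beyond the construction of each setting, the cause was not tested. Around Gli2 3 of 5 pixels in each list passed the stricter FDR, and the ratio there lay above 1 at all 3 pixels with vertical expected counts (1.29, 1.48 and 1.04). Around Gli3 the DKO pixel passed it and the WT pixel did not. These checks around Gli2 and Gli3 were chosen after seeing the data. Contact counts of 11 to 22 limit every value at the 6 genes.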
